A study of Mus musculus with 13 samples.

Results

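The collagen chain genes were taken as every gene whose platform symbol has the form Col, number, a, number, on a probe set that carries no other gene symbol. There were 42 of them, on 82 probe sets, among 18193 genes represented in this way on the Affymetrix MOE430 arrays. Where a gene had several probe sets, the one with the highest mean log2 intensity over the 13 arrays stood for it, so no difference between groups entered the choice. By structure the 42 genes comprised 11 fibrillar chains, 9 FACIT chains (fibril-associated collagens with interrupted triple helices), 6 type IV chains of basement membranes, 5 type VI chains of beaded filaments, 4 transmembrane collagens, 3 short chain collagens, 2 multiplexins, the anchoring fibril chain Col7a1, and Col26a1.

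Collagens are built from chains in sets of 3 wound into a triple helix, and the class of chain decides what the protein assembles into. Fibrillar chains form the rope-like fibrils that carry tension in connective tissue, and FACIT chains sit on the surface of those fibrils. Type IV chains form the sheet under epithelia and around muscle cells and vessels, while type VI chains form fine filaments near cells. Transmembrane collagens are anchored in the plasma membrane and can be shed from it. In the developing lower urinary tract the mesenchyme around the epithelial tube gives rise to smooth muscle and to a collagen-rich connective tissue, which later lets the bladder wall stretch and recoil.

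The arrays compared 3 regions of the lower urinary tract at embryonic day 14, at Theiler stages 21 and 22. The embryos had FVB/N mothers and fathers carrying SMGA/EGFP, a fluorescent reporter transgene, and their sex was unknown. The bladder (3 arrays, replicates 2, 6 and 8 after the numbers in the sample titles) and the urethra (3 arrays, replicates 1, 2 and 6) were dissected as reporter-positive tissue. The urogenital sinus (4 arrays, replicates 1, 2, 6 and 7) was the reporter-negative stretch between them, so the reporter itself set the borders of the regions. Each region sample was unpooled. The newborn reference (3 arrays) was RNA from whole wild-type FVB/N mice at postnatal day 1, pooled from 4 males and 4 females. Whether each region array stands for its own embryo is not stated, and p-values cover only the spread among these arrays. In such bulk tissue, fewer cells of a type and less RNA per cell cannot be told apart.

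Values are log2 signal intensities of 1 probe set, which compare a gene between samples and not different genes with each other. All arrays had a 2% trimmed mean intensity of 1500.01, but their medians ranged from 142 to 238 in the bladder, 259 to 389 in the sinus, 221 to 378 in the urethra and 278 to 455 in the reference. Centring each array on its own median moved the median difference of all genes by 0.56 between bladder and sinus and by 0.45 between bladder and urethra, upwards for the bladder. The array least like the rest of its group was sinus replicate 1 (mean correlation 0.889). A gene was tested when at least 3 arrays exceeded an intensity of 167.76 (7.39 on the log2 scale), which kept 15006 genes, 39 of them collagen chain genes. Col6a5, Col10a1 and Col20a1, a type VI, a short chain and a FACIT gene, did not pass and had at most 2 arrays above that level. The mean level of 8 smooth muscle markers lay between 11.4 and 12.1 on bladder arrays, 10.6 and 12.0 on urethra arrays, and 8.75 and 10.4 on sinus arrays, although Des stayed under 7.39 on every bladder array.

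The collagen genes that separated the regions were mostly not the major fibrillar chains. Bladder tissue held less Col23a1 and Col26a1 than the urethra, less Col2a1 and Col6a4, and more of the fibril-associated chains Col14a1 and Col16a1, more Col8a2 and more Col25a1. Between bladder and sinus, Col23a1 and Col16a1 differed in the same directions, and between urethra and sinus no collagen gene passed the test. All urethra arrays share a style of sample title that no other region has. With title style in the fit, 0 collagen genes passed between bladder and urethra. In that comparison the other Col25a1 probe set had the opposite sign, at -0.71. A gene was called at a limma p-value under 0.05 after Benjamini-Hochberg adjustment over all 15006 genes. Of the 39 genes, 4 were called higher and 4 lower in bladder than in urethra, which is 10.3% each way, where 1.71% and 2.61% of all genes were called. In bladder against sinus 1 was called higher and 1 lower, beside 0.813% and 1.71% of all genes, so that count lies near the background. In urethra against sinus 0 were called, beside 0.00666% of all genes higher and 0.00666% lower. At an unadjusted p under 0.05, there were 7 of the 39 genes and 1552 of all genes.

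**Figure D1:**
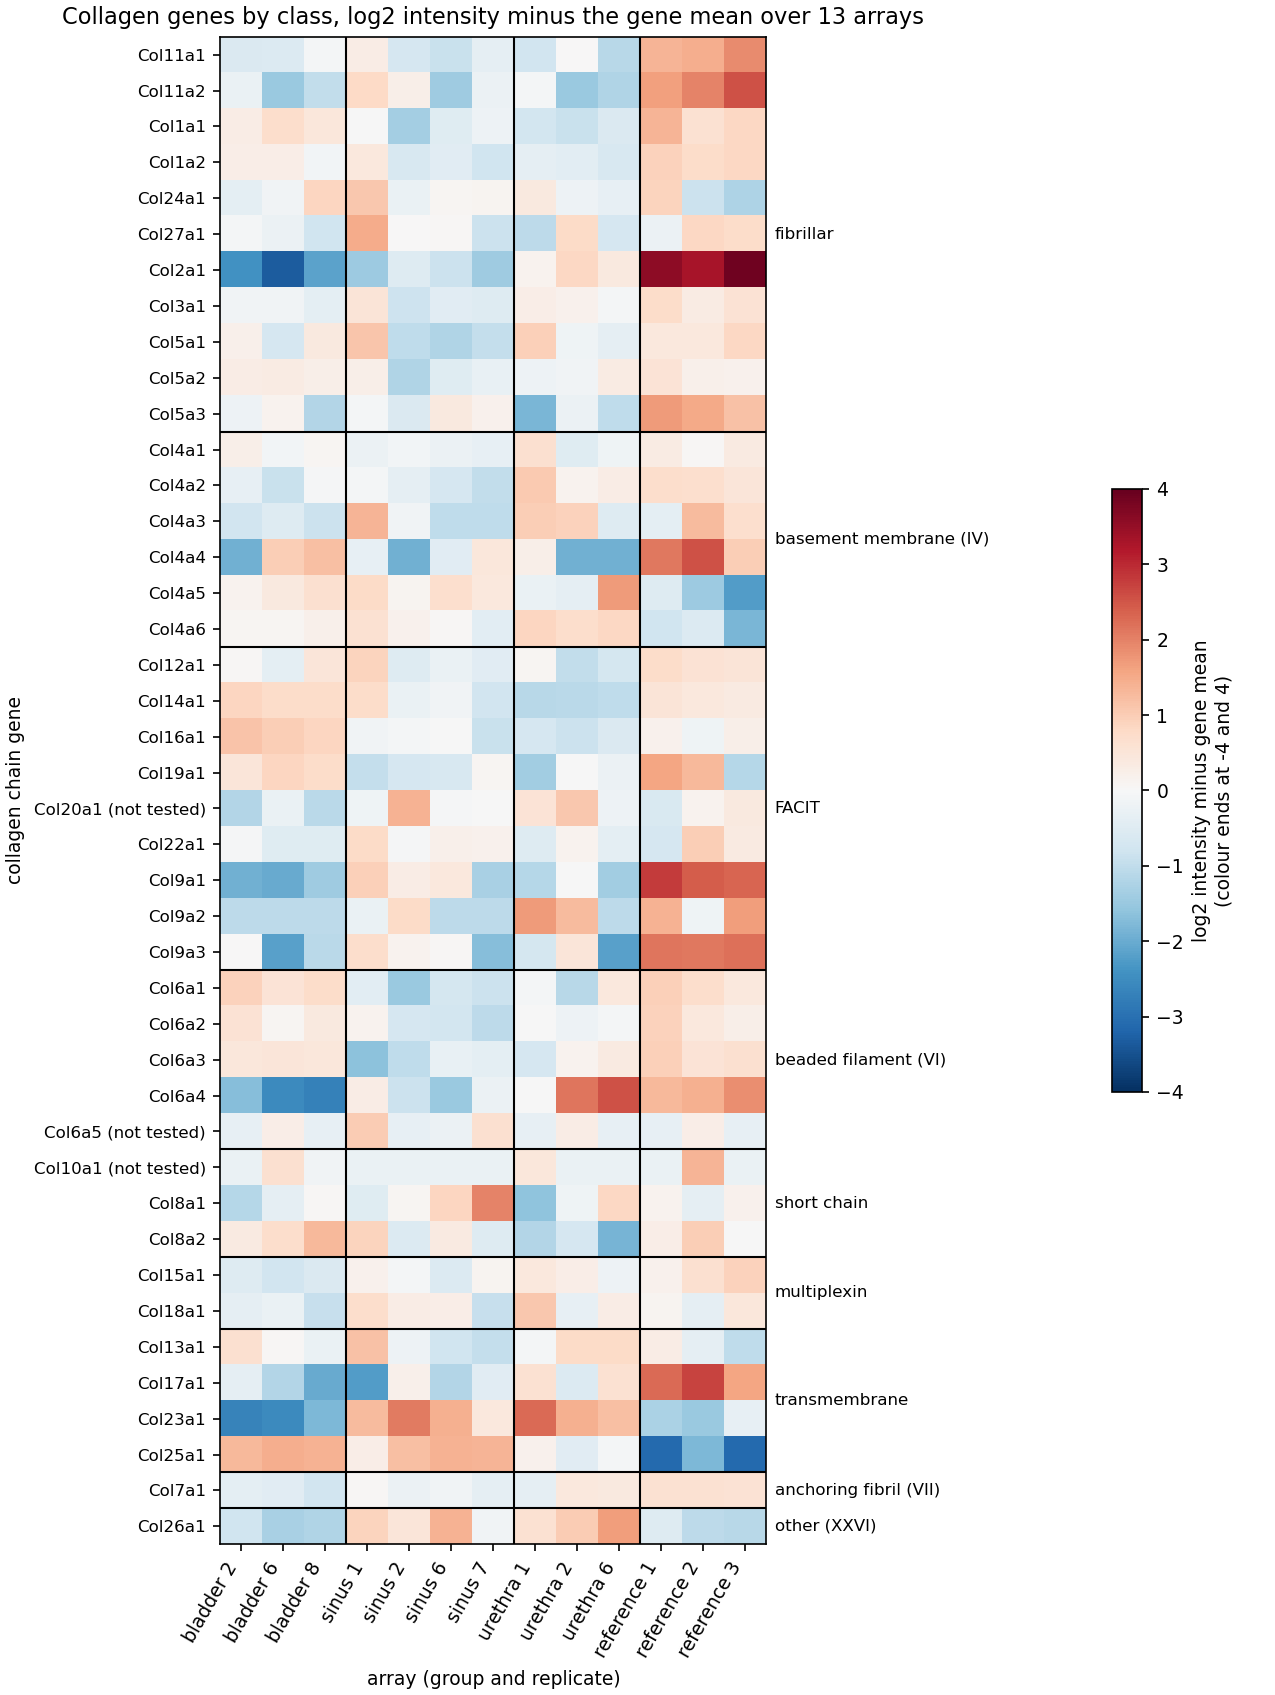
Each row is a collagen chain gene, each column an array, and colour is the log2 intensity minus the mean of the gene over the 13 arrays (red higher, blue lower, colours end at -4 and 4). Col23a1 is blue on all 3 bladder arrays and red on the sinus and urethra arrays, and Col2a1 is darkest red on the 3 reference arrays.

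All 11 fibrillar genes were tested. The chains of the common connective tissue fibrils (Col1a1, Col1a2, Col3a1, Col5a1 and Col5a2) were above the filter level on all 13 arrays. Col1a1, the main chain of type I collagen, stood at 14.50, 14.66 and 14.92 in the bladder, 12.84, 13.73, 13.99 and 14.19 in the sinus, 13.32, 13.48 and 13.62 in the urethra, and 14.81, 15.04 and 15.58 in the reference. The 3 bladder arrays lay above every sinus and urethra array, yet the differences missed the threshold (log2 difference 1.00, SE 0.30, adjusted p = 0.125 against the sinus, and log2 difference 1.22, SE 0.32, adjusted p = 0.0646 against the urethra). The other Col1a1 probe set gave 1.55 and -0.01 for these differences, so it did not share the difference from the urethra. Col1a2, its partner in type I collagen, differed by 0.50 (SE 0.28) and 0.61 (SE 0.30), and Col3a1, the chain of the thinner type III fibrils, by 0.09 (SE 0.29) and -0.36 (SE 0.31). The other Col1a2 probe sets gave 0.98 and 1.05, and -0.23 and 0.62. The other Col3a1 probe set gave 0.44 and 0.46, with the opposite sign against the urethra.

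Col2a1, the chain of the cartilage fibril, was the fibrillar gene that passed the test between regions. Its levels were 5.65, 6.53 and 6.83 in the bladder, 7.51, 7.54, 8.10 and 8.46 in the sinus, 9.12, 9.37 and 9.81 in the urethra, and 12.27, 12.53 and 12.86 in the reference. The 4 groups did not overlap at all, with bladder lowest and the reference highest, and all 3 bladder arrays were under the filter level. Counting the bladder at that level, Col2a1 was at least 4.12-fold lower there than in the urethra (log2 difference -3.09, SE 0.42, adjusted p = 0.00693). The differences from the sinus did not pass (log2 difference -1.56, SE 0.39, adjusted p = 0.0709 for the bladder, log2 difference 1.53, SE 0.39, adjusted p = 0.218 for the urethra). The mean level of 13 cartilage and bone markers lay between 6.85 and 7.17 on bladder arrays and between 6.83 and 8.08 on urethra arrays, with a median of 10.9 on reference arrays. The median of this level was 7.1 on bladder and on urethra arrays, and the 8.08 was that of urethra replicate 2. Of these markers, 7 of 13 stayed under the filter level on every bladder array, 6 on every sinus array and 3 on every urethra array, and Cnmd and Ibsp did so in all 3 regions. The lower urethra count rests on single arrays. In the urethra, Matn1, Matn3, Epyc and Snorc exceeded the filter level on replicate 2 only, and Dmp1 on replicate 6 only.

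Against the newborn reference 29, 29 and 30 of 39 collagen genes had a difference below 0 in bladder, sinus and urethra. Over all 15006 genes 8784, 7607 and 7165 did. Of the 8 FACIT genes 5, 7 and 8 did, with medians of -0.56, -0.91 and -1.14. Of the 4 type VI genes 3, 4 and 3 did, with medians of -0.22, -1.56 and -0.70. In the fibrillar class, 10 of 11 genes had a difference below 0 in each region, and the exception each time was Col24a1, a minor fibrillar chain. The median difference was -0.77 in the bladder, -1.18 in the sinus and -1.29 in the urethra, beside -0.27, -0.01 and 0.06 over all genes. For the bladder this direction depends on the scaling: with arrays centred on their medians the class median was 0.08 and 4 of 11 genes were below 0, although 9 of 11 were below the median of all genes under that scaling, as they were without it. In the sinus 10 of 11 and in the urethra 9 of 11 fibrillar genes stayed below 0 after centring. The bladder medians of the FACIT and type VI classes were then 0.28 and 0.63, beside 0.59 over all genes. With that centring 5 of 8 FACIT and 3 of 4 type VI genes were above 0 in bladder. The bladder count of genes below 0 thus depends on the scaling in these classes too. The difference was called for Col2a1 in all 3 regions: it was at least 35.9-fold lower in the bladder (log2 difference -6.22, SE 0.59, adjusted p = 6.56e-05), 25.1-fold lower in the sinus (log2 difference -4.65, SE 0.57, adjusted p = 0.000422) and 8.71-fold lower in the urethra (log2 difference -3.12, SE 0.59, adjusted p = 0.00645). Col11a1, which joins Col2a1 in cartilage fibrils, ranged from 10.73 to 12.13 on the 10 region arrays and from 13.19 to 13.72 in the reference, and was called lower in bladder (3.93-fold), sinus (3.93-fold) and urethra (4.53-fold). With arrays centred on their medians all 3 Col11a1 calls were lost (adjusted p 0.214, 0.0988 and 0.0909), as was that of Col2a1 in urethra (0.0571), and the bladder call of Col11a1 was also lost with the mean of its probe sets (0.0710). Col11a2, the other type XI chain of cartilage, was called lower in bladder and urethra, at least 3.51-fold in both. It passed the filter through the 3 reference arrays and sinus replicate 1 (7.94), so the group where it was high let it into the test. Both Col11a2 calls were lost with no filter (adjusted p 0.0528 and 0.0591), a floor of 16 (0.0767 and 0.0642), quantile normalization (0.141 and 0.101) and median centring (0.115 and 0.120). In the urethra Col1a1 (log2 difference -1.67, SE 0.45, adjusted p = 0.0374) and the type V chain Col5a3 (log2 difference -2.50, SE 0.70, adjusted p = 0.042) were called lower too. Col1a1 was lost there with quantile normalization (adjusted p = 0.0541), median centring (0.211) and the mean of its probe sets (0.188), and Col5a3 with no filter (0.0550) and the mean of its probe sets (0.136).

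Markers of other tissues differed from the reference in the same comparisons. Of 13 cartilage and bone markers 7 were called lower in each region, with medians of -4.68, -4.02 and -3.92 in bladder, sinus and urethra. Of 8 skeletal muscle markers 8, 4 and 4 were called lower, with medians of -7.78, -7.40 and -6.15. Over all genes 11.2%, 9.18% and 8.86% were called lower in bladder, sinus and urethra. The markers Cnmd, Ibsp and Ckm were under the filter level on every region array. They entered the test only through the reference arrays, where they were high, so the filter set their direction. The mean skeletal muscle level lay between 6.01 and 6.69 on bladder arrays and 6.61 and 9.75 on urethra arrays. It reached 8.28 on sinus arrays, with a median of 7.24, and lay between 13.8 and 14.1 on reference arrays. The part of these marker differences in the collagen values was not tested.

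**Figure D2:**
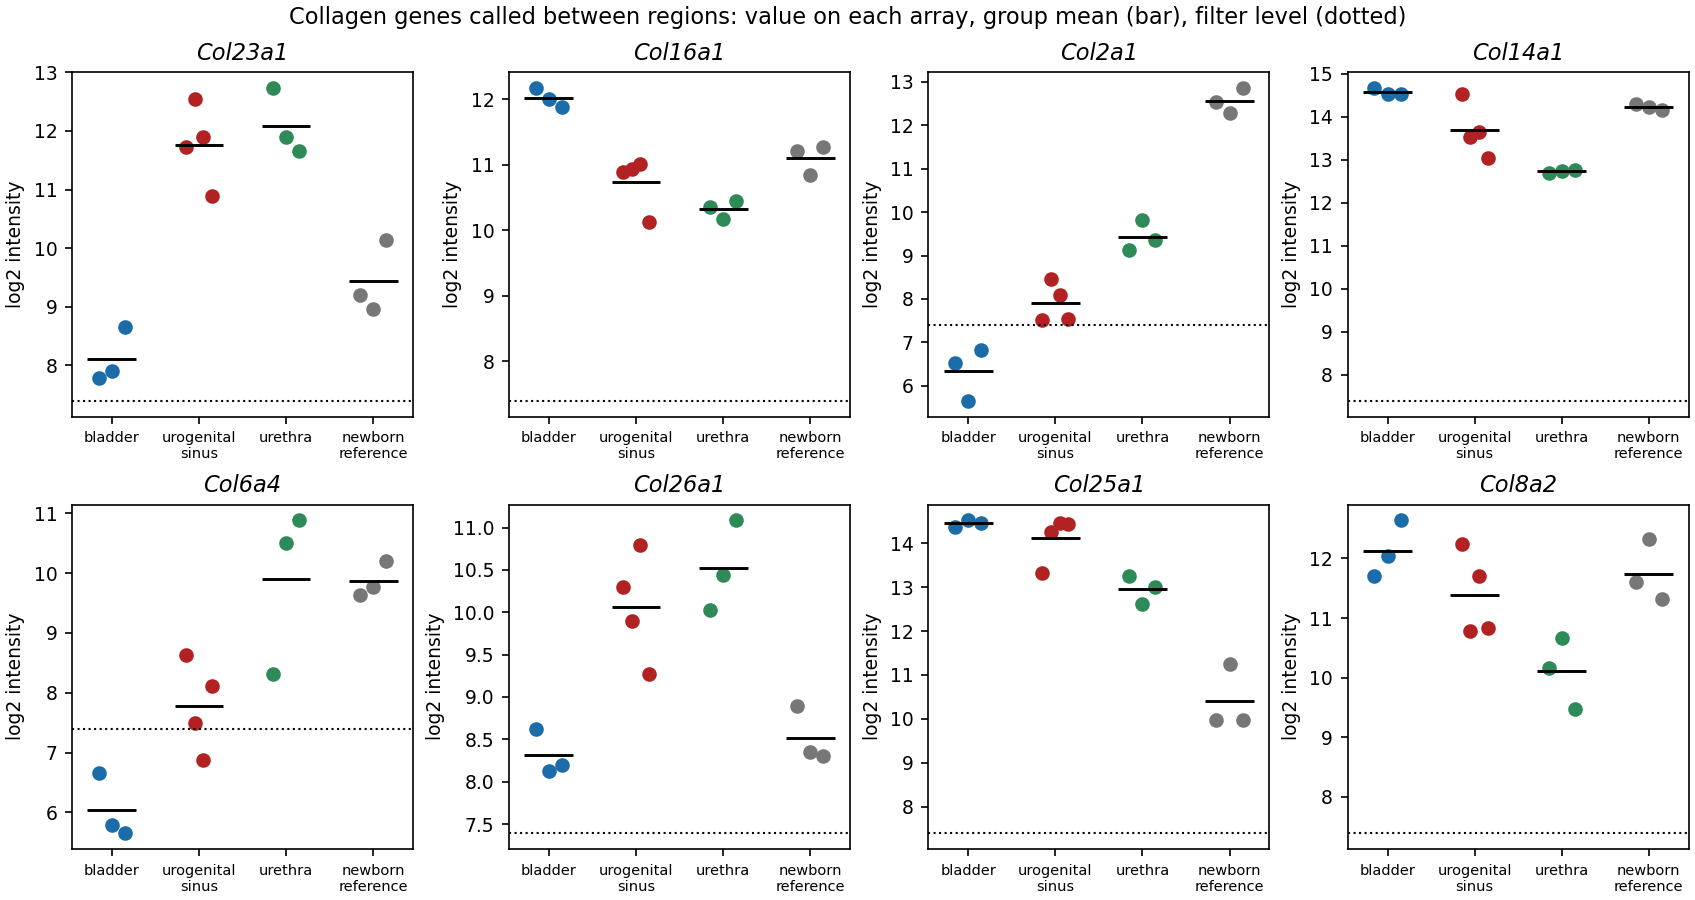
Each panel shows 1 of the 8 collagen genes called between regions: points are log2 intensities of single arrays, bars are group means, and the dotted line is the filter level of 7.39. In Col23a1 the 3 bladder arrays (7.79 to 8.65) lie below all sinus and urethra arrays (10.90 to 12.73), and in Col14a1 the urethra arrays (12.70 to 12.77) lie below all others.

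Of the 9 FACIT genes 8 were tested, and 2 were called higher in bladder than in urethra. Col16a1, a chain that links to fibrils and to integrins on cells, stood at 11.88, 12.01 and 12.18 in the bladder, 10.13, 10.90, 10.94 and 11.01 in the sinus, 10.18, 10.36 and 10.45 in the urethra, and 10.84, 11.20 and 11.27 in the reference. All 3 bladder arrays exceeded all other arrays. Col16a1 was 2.43-fold higher in bladder than in sinus (log2 difference 1.28, SE 0.26, adjusted p = 0.0374, 95% interval of the log2 difference 0.70 to 1.86) and 3.24-fold higher than in urethra (log2 difference 1.70, SE 0.28, adjusted p = 0.0143). Col14a1, a fibril-surface chain of stretch-bearing connective tissue, was at 14.53, 14.54 and 14.68 in the bladder, 13.03, 13.52, 13.65 and 14.54 in the sinus, 12.70, 12.74 and 12.77 in the urethra, and 14.17, 14.23 and 14.30 in the reference. Its urethra arrays spanned 12.70 to 12.77 and lay below all others, and bladder exceeded urethra 3.60-fold (log2 difference 1.85, SE 0.32, adjusted p = 0.0171). Bladder and sinus overlapped at Col14a1 (log2 difference 0.89, SE 0.30, adjusted p = 0.165). The other 2 Col14a1 probe sets were also higher in bladder than urethra, by 0.86 and 2.20 on the log2 scale, while Col16a1 had no other probe set.

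Col9a1, Col9a2 and Col9a3 encode the chains of type IX collagen, which coats cartilage fibrils. Col9a1 stood at 9.34, 9.42 and 9.91 in the bladder, 10.06, 11.64, 11.76 and 12.29 in the sinus, 9.96, 10.21 and 11.34 in the urethra, and 13.66, 13.77 and 14.13 in the reference, so the reference lay above every region array. It was 19.6-fold lower in bladder (log2 difference -4.29, SE 0.79, adjusted p = 0.00496) and 10.2-fold lower in urethra (log2 difference -3.35, SE 0.79, adjusted p = 0.0203), while the sinus missed the threshold (log2 difference -2.42, SE 0.77, adjusted p = 0.0678). Bladder Col9a1 was below every sinus array, and that difference did not pass (log2 difference -1.88, SE 0.53, adjusted p = 0.102); it was -2.51 among arrays sharing a style of sample title and -0.15 between the pair sharing another. Col9a3 read 6.87, 7.97 and 9.05 in the bladder, 7.35, 9.09, 9.19 and 9.75 in the sinus, 6.86, 8.34 and 9.52 in the urethra, and 11.14, 11.19 and 11.24 in the reference. The reference arrays spanned 11.14 to 11.24 while each region varied widely, and no difference was called (log2 difference -3.23, SE 1.17, adjusted p = 0.0903 for the bladder). Col19a1, a minor FACIT chain, was higher on every bladder array (9.03 to 9.42) than on any sinus (7.60 to 8.63) or urethra array (7.18 to 8.56), with adjusted p = 0.151 and 0.132. These log2 differences were 1.25 and 1.23. Another Col19a1 probe set that passed the filter gave 1.75 and -0.16, so it did not share the difference from the urethra.

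Type VI collagen was measured at 4 of its 5 genes. Col6a1, Col6a2 and Col6a3, whose products make up the common type VI filament, all had higher means in bladder than in sinus, and none of the 3 passed the test. Col6a1 stood at 14.05, 14.21 and 14.42 in the bladder, 12.01, 12.62, 12.77 and 13.07 in the sinus, 12.37, 13.40 and 13.91 in the urethra, and 13.90, 14.20 and 14.44 in the reference. Every bladder array exceeded every urethra and sinus array, and the log2 difference from the sinus was 1.61 (SE 0.36, adjusted p = 0.0514). For Col6a3 it was 1.29 (SE 0.36, adjusted p = 0.0978), and for Col6a2, where the groups overlapped, 0.94 (SE 0.28, adjusted p = 0.118). The other Col6a2 probe set gave 0.05 against the sinus. Against the urethra it gave -0.57, where the probe set used gave 0.45. Col6a1 and Col6a3 had no other probe set. Between bladder and reference these 3 genes gave differences of 0.04 (SE 0.55), -0.17 (SE 0.42) and -0.27 (SE 0.54).

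Col6a4, a further type VI chain gene, ran the opposite way. It stood at 5.65, 5.79 and 6.65 in the bladder, 6.88, 7.49, 8.11 and 8.64 in the sinus, 8.32, 10.50 and 10.88 in the urethra, and 9.64, 9.77 and 10.20 in the reference. Bladder was lowest and under the filter level on all 3 arrays, and urethra replicate 1, at 8.32, lay within the sinus range while the other 2 urethra arrays lay above it. Counting the bladder at the filter level, it was at least 5.70-fold lower there than in the urethra (log2 difference -3.87, SE 0.69, adjusted p = 0.0185). Bladder was also called lower than the reference, at least 5.57-fold (log2 difference -3.84, SE 0.98, adjusted p = 0.0248), a call lost with a floor at the 40th percentile (0.0913) and with the mean of its probe sets (0.0859), and urethra against sinus did not pass (log2 difference 2.12, SE 0.65, adjusted p = 0.304). Over the class, 3 of 4 genes were above 0 in bladder against sinus, with a median of 1.11 beside -0.19 over all genes. Median centring moved bladder differences upwards, so a count above 0 could not test this. Counted as above the median of all genes, 3 of 4 were so in the main fit, with quantile normalization and with median centring.

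Of the short chain collagens, which form hexagonal lattices, Col8a1 and Col8a2 were tested. Col8a2 stood at 11.70, 12.05 and 12.64 in the bladder, 10.79, 10.84, 11.71 and 12.24 in the sinus, 9.48, 10.16 and 10.67 in the urethra, and 11.32, 11.60 and 12.32 in the reference. Urethra arrays lay below all bladder and sinus arrays, and bladder exceeded urethra 4.06-fold (log2 difference 2.02, SE 0.46, adjusted p = 0.043). Col8a1, its partner chain, spread widely within groups, at 10.78, 11.58 and 11.99 in the bladder, 11.45, 11.99, 12.79 and 13.90 in the sinus, 10.31, 11.76 and 12.76 in the urethra, and 11.58, 12.07 and 12.08 in the reference. All regions overlapped at Col8a1, and no difference between them passed (log2 difference -1.08, SE 0.67, adjusted p = 0.427 for bladder against sinus). The other 2 Col8a1 probe sets gave -1.88 and -2.45 for bladder against sinus, further from 0 than the -1.08 of the probe set used.

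The largest log2 difference between regions was that of a transmembrane collagen. Col23a1, a membrane collagen found on epithelial and some other cells, stood at 7.79, 7.91 and 8.65 in the bladder, 10.90, 11.72, 11.89 and 12.54 in the sinus, 11.65, 11.89 and 12.73 in the urethra, and 8.97, 9.19 and 10.13 in the reference. Bladder lay below every sinus and urethra array and sinus and urethra overlapped. Col23a1 was 12.5-fold lower in bladder than in sinus (log2 difference -3.65, SE 0.43, adjusted p = 0.0045, 95% interval -4.60 to -2.70) and 15.8-fold lower than in urethra (log2 difference -3.98, SE 0.46, adjusted p = 0.00327, 95% interval -5.00 to -2.96). Its other 2 probe sets gave -2.88 and -3.64 against the sinus and -3.47 and -2.63 against the urethra. Against the reference, Col23a1 was called higher in sinus (5.03-fold, adjusted p = 0.0352) and urethra (6.33-fold, adjusted p = 0.0228) but not in bladder (log2 difference -1.32, SE 0.65, adjusted p = 0.198). With median centring both Col23a1 calls against the reference were lost (adjusted p 0.0935 and 0.0575).

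Col25a1, a membrane collagen best known from neurons, followed another order. It stood at 14.36, 14.46 and 14.53 in the bladder, 13.32, 14.26, 14.43 and 14.47 in the sinus, 12.61, 12.99 and 13.25 in the urethra, and 9.96, 9.97 and 11.26 in the reference. All region arrays exceeded all reference arrays, and the urethra lay below bladder and sinus without overlap. Relative to the reference it was 16.6-fold higher in bladder (log2 difference 4.05, SE 0.44, adjusted p = 0.000181), 13.2-fold higher in sinus (log2 difference 3.72, SE 0.43, adjusted p = 0.000266) and 5.87-fold higher in urethra (log2 difference 2.55, SE 0.44, adjusted p = 0.00403). Its other probe set was higher than the reference as well, by 1.25, 2.15 and 1.96. Bladder exceeded urethra 2.83-fold (log2 difference 1.50, SE 0.31, adjusted p = 0.0297), but here the other probe set had the opposite sign, at -0.71, and the mean over both probe sets gave 0.39 with adjusted p = 0.422. Col17a1, the hemidesmosome collagen of stratified epithelia, was 10.3-fold lower than the reference in bladder (adjusted p = 0.0348) and 8.56-fold lower in sinus (adjusted p = 0.0492). Both Col17a1 calls were lost with quantile normalization (0.0884 and 0.0573), median centring (0.142 and 0.147) and no filter (0.0520 and 0.0707), and that in sinus also without probe sets marked as shared (0.0514).

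Col26a1, a short secreted collagen first described in testis and ovary, stood at 8.12, 8.20 and 8.62 in the bladder, 9.28, 9.90, 10.30 and 10.80 in the sinus, 10.03, 10.44 and 11.09 in the urethra, and 8.30, 8.35 and 8.89 in the reference. Bladder and reference lay together below every sinus and urethra array. Bladder was 4.62-fold lower than urethra (log2 difference -2.21, SE 0.44, adjusted p = 0.0263) and 3.38-fold below the sinus without passing (adjusted p = 0.0565). The other Col26a1 probe set did not pass the filter on low values.

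**Figure D3:**
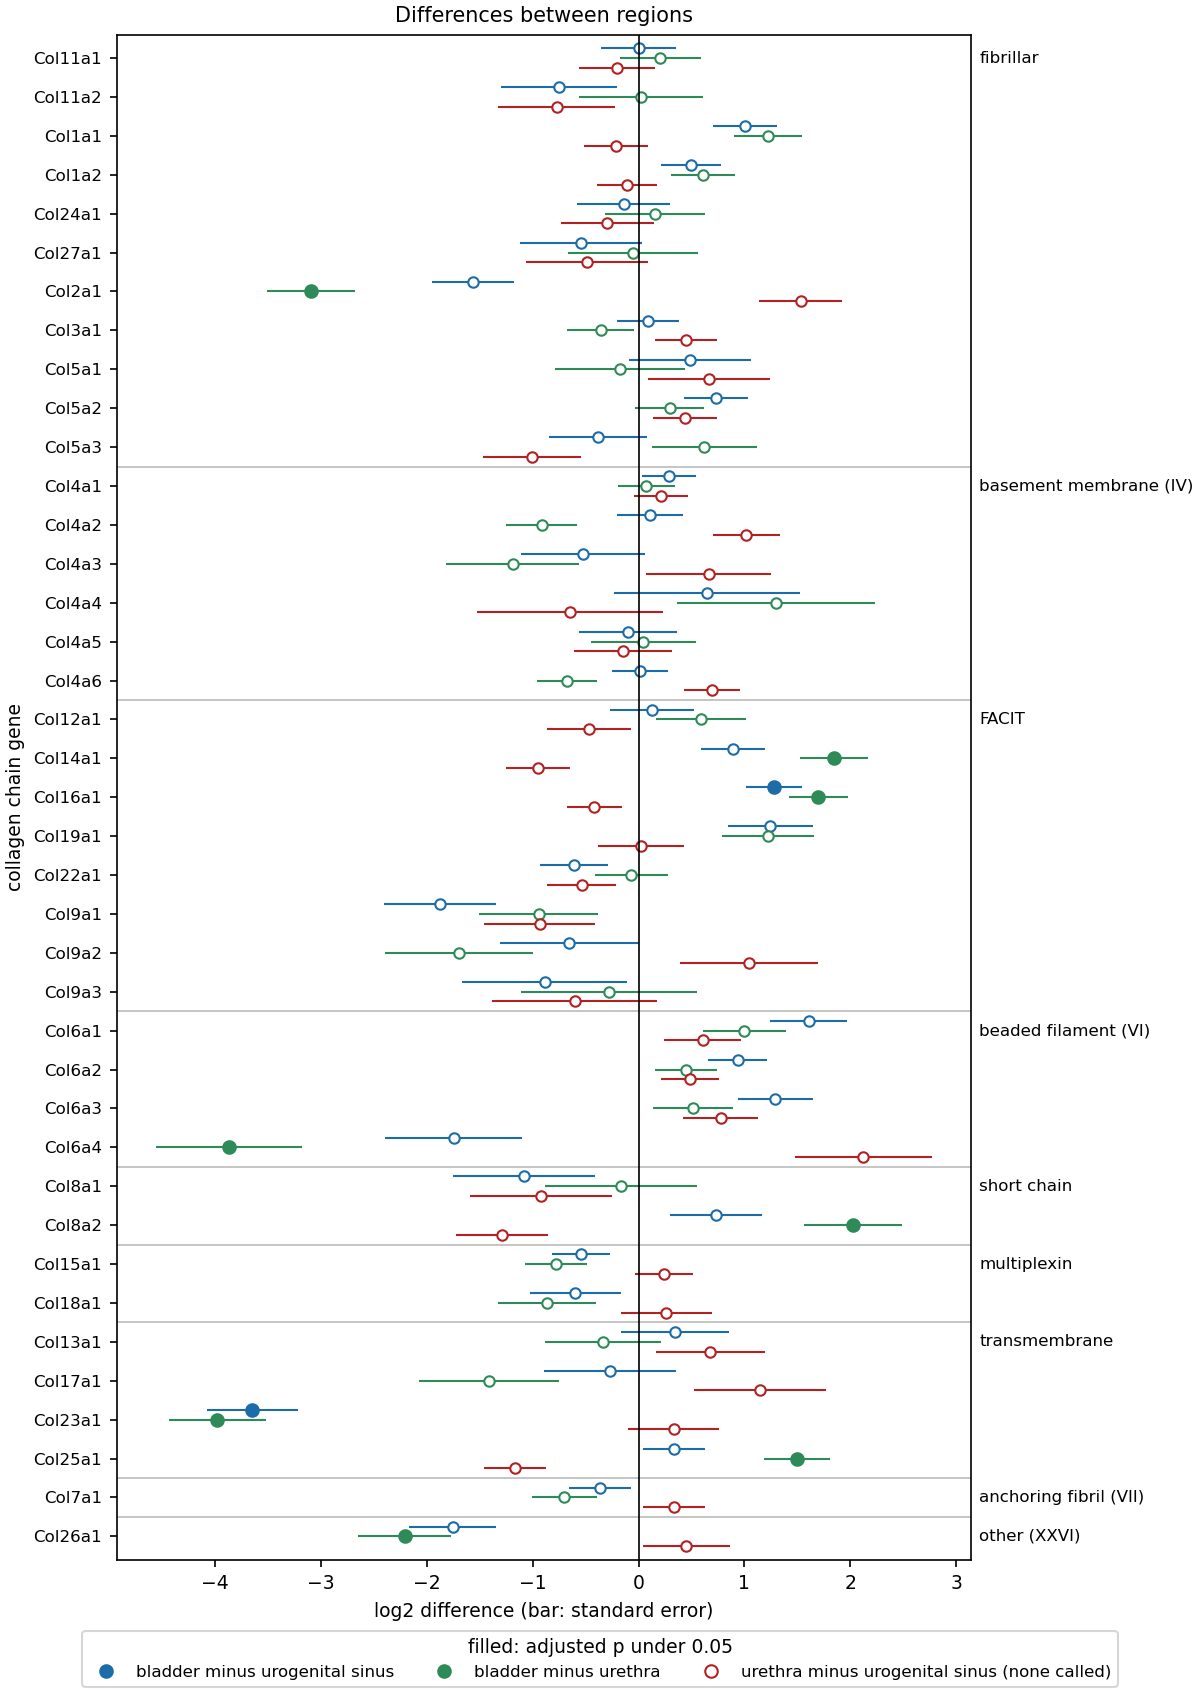
Log2 differences between regions (x axis, bars are standard errors) for the 39 tested collagen genes, grouped by class; filled points have an adjusted p under 0.05. Col23a1 lies farthest to the left, at -3.65 against the sinus and -3.98 against the urethra, and among filled points Col8a2 lies farthest to the right, at 2.02 in bladder minus urethra.

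Promoter sequences were looked up for the genes that differed between regions. The RefSeq table of build GRCm38.p6 held 33 of the 42 genes, and 5 of the 8 called genes. For these 5 the 250 bases before the annotated transcription start are shown 5′ to 3′ on the gene's strand, because genes called in the same direction can be set side by side: Col16a1, Col25a1 and Col8a2 were higher in bladder than in urethra, and Col23a1 and Col6a4 lower. Capitals mark CCAAT and GGGCGG on either strand and, in Col6a4, a CArG box, the motif named for serum response factor; every motif was searched on both strands.
Col16a1: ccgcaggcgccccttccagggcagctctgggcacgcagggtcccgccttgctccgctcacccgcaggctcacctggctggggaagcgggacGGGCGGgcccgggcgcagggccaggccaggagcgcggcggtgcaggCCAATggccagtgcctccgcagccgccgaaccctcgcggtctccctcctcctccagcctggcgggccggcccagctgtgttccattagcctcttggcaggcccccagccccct
Col25a1: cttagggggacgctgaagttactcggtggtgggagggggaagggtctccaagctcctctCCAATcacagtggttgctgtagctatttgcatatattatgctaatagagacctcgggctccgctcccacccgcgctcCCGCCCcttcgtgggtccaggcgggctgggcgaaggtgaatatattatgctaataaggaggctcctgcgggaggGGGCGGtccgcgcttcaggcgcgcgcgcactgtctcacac
Col8a2: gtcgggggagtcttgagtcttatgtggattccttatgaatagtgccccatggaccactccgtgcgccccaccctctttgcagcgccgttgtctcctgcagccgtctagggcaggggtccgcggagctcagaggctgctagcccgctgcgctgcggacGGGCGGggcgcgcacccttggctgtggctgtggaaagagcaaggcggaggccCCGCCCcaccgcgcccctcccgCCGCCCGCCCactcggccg
Col23a1: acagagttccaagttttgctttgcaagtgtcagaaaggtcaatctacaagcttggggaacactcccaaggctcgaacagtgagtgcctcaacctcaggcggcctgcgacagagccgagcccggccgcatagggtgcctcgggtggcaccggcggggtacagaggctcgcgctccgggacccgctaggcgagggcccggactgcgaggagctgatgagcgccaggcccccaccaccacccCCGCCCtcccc
Col6a4: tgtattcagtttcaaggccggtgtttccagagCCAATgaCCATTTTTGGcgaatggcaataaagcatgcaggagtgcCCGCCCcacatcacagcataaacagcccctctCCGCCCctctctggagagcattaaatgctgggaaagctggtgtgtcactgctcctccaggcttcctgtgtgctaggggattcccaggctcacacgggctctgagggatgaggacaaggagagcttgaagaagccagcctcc
The windows are at chr4:130047590-130047839, plus strand, for Col16a1, chr3:130180595-130180844, plus strand, for Col25a1, and chr4:126286544-126286793, plus strand, for Col8a2. Col23a1 is at chr11:51289670-51289919, plus strand, and Col6a4 at chr9:106096692-106096941, minus strand. GGGCGG occurred in all 5, with 1 match in Col16a1 and Col23a1, 2 in Col25a1 and Col6a4, and 4 in Col8a2, of which a pair overlap each other. It occurred in 20 of the 33 collagen genes and in 32.7% of all 32851 promoter windows of this length. CCAAT occurred in Col16a1, Col25a1 and Col6a4, in 13 of 33 collagen genes, and in 33.8% of all windows. TATAAA occurred in none of the 5 and in 5 of the 33 genes (12.4% of all windows), and the CArG box in Col6a4 alone of the 33 (1.47%). GC content was 75.6% in Col16a1, 60.4% in Col25a1, 70.0% in Col8a2, 66.0% in Col23a1 and 55.2% in Col6a4. The matches describe these windows and were not tested as sites of binding.

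The 6 type IV genes were all tested and none was called between regions. Median differences were 0.06 in bladder against sinus, 0.44 in urethra against sinus and -0.32 in bladder against urethra. Col4a2, part of the common basement membrane trimer, stood at 12.27, 12.81 and 13.10 in the bladder, 12.15, 12.47, 12.79 and 13.06 in the sinus, 13.29, 13.43 and 14.20 in the urethra, and 13.62, 13.82 and 13.85 in the reference. All 3 urethra arrays exceeded all bladder and sinus arrays, and the log2 difference was 1.02 (SE 0.31, adjusted p = 0.309) for urethra against sinus and -0.91 (SE 0.33, adjusted p = 0.143) for bladder against urethra. Col4a1, its neighbour on chromosome 8 and partner in the trimer, differed by 0.21 (SE 0.25) and 0.07 (SE 0.27) in the same comparisons, and the difference between the neighbours was not tested.

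Col4a5 and Col4a6, another neighbouring pair, encode chains of a basement membrane network found in smooth muscle and some epithelia. Col4a6 stood at 10.37, 10.37 and 10.48 in the bladder, 9.87, 10.35, 10.45 and 10.89 in the sinus, 10.98, 11.11 and 11.16 in the urethra, and 8.46, 9.51 and 9.76 in the reference, and Col4a5 at 11.02, 11.26 and 11.50 in the bladder, 10.99, 11.29, 11.54 and 11.62 in the sinus, 10.49, 10.59 and 12.57 in the urethra, and 8.63, 9.41 and 10.35 in the reference. Every region array was above every reference array for both genes. Col4a6 was called higher than the reference in urethra (3.59-fold, log2 difference 1.84, SE 0.40, adjusted p = 0.0143), and not in bladder (log2 difference 1.17, SE 0.40, adjusted p = 0.078) or sinus (log2 difference 1.15, SE 0.39, adjusted p = 0.0865). Col4a5 was not called in any region, with differences of 1.80 (SE 0.70), 1.90 (SE 0.68) and 1.75 (SE 0.70) for bladder, sinus and urethra. Their other probe sets were also above the reference in each region, by 0.55 to 1.18 for Col4a6 and by 0.69 to 1.68 for Col4a5, but with the mean of its probe sets Col4a6 was not called in urethra (adjusted p = 0.0787). Col4a3 and Col4a4 exceeded the filter level on 4 and 7 of the 13 arrays, and no difference of either was called.

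The multiplexins Col15a1 and Col18a1 belong to basement membrane zones, and Col18a1 is the source of endostatin. Col15a1 stood at 9.80, 9.97 and 10.04 in the bladder, 10.01, 10.48, 10.66 and 10.74 in the sinus, 10.34, 10.81 and 10.99 in the urethra, and 10.73, 11.19 and 11.47 in the reference. The bladder arrays lay below the urethra arrays and overlapped the sinus, and no difference passed (log2 difference -0.78, SE 0.29, adjusted p = 0.150 for bladder against urethra). Col18a1 was at 11.44, 12.00 and 12.12 in the bladder, 11.45, 12.62, 12.66 and 13.08 in the sinus, 12.03, 12.66 and 13.46 in the urethra, and 12.00, 12.49 and 12.82 in the reference, with every pair of groups overlapping (log2 difference -0.86, SE 0.46, adjusted p = 0.274). Col7a1, the chain of the anchoring fibrils under stratified epithelia, read 9.13, 9.45 and 9.53 in the bladder, 9.56, 9.66, 9.77 and 9.95 in the sinus, 9.56, 10.31 and 10.34 in the urethra, and 10.49, 10.51 and 10.51 in the reference. The bladder lay below all other groups, and no difference passed (log2 difference -0.70, SE 0.31, adjusted p = 0.203 for bladder against urethra).

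In bladder against sinus, 13 of 39 collagen genes did not overlap between the groups (7 higher, 6 lower), beside 17.9% of all genes, and 2 of the 13 were called. Without single arrays the Col23a1 call held, with adjusted p up to 0.0360 over all alternatives tried. The Col16a1 call was lost without any of bladder replicates 2, 6 and 8, sinus replicates 2 and 6, and urethra replicates 2 and 6 (adjusted p 0.0511 to 0.156, log2 difference 1.20 to 1.37). Without sinus replicate 1, 5 collagen genes were called, and 4 without sinus replicate 7. Within each style of sample title that both regions share, Col23a1 differed by -4.20 and -2.25 and Col16a1 by 1.15 and 1.75. Smooth muscle markers differed between these regions in the same samples, with 5 of 8 called higher in bladder and a median of 2.64, and their part in the collagen values was not tested. The bladder was dissected as reporter-positive and the sinus as reporter-negative tissue. This marker difference and the choice of tissue by reporter cannot be told apart. Of 12 epithelial markers 1 was called, Krt5, lower in bladder (-3.39), and the list had a median of -0.61. Its members did not all lie one way: the uroplakins Upk1b (1.42) and Upk3a (1.71) had higher means in bladder without passing. Of 8 neuron and glia markers 1 was called, Elavl3, lower in bladder (-3.70), with a list median of -1.87. The median over all genes was -0.19, and the part of these lists in the collagen values was not tested either.

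In bladder against urethra, 20 of 39 collagen genes did not overlap (10 higher, 10 lower), beside 34.5% of all genes. All urethra arrays carry a title style that no other region has. With title style as a fixed block, which links the urethra to the bladder through the reference arrays, 0 collagen genes were called: Col23a1 was at -2.97 (adjusted p = 0.158), Col2a1 at -2.64 (0.193), Col16a1 at 1.86 (0.139), Col14a1 at 1.69 (0.230), Col6a4 at -3.37 (0.286), Col26a1 at -2.63 (0.166), Col25a1 at 0.93 (0.618) and Col8a2 at 1.41 (0.563). What the title style marks is not stated, and style and region cannot be told apart for the urethra. Col23a1 and Col2a1 were called without any single array. Col16a1 was lost without bladder replicate 2 or 6 (adjusted p 0.0625 and 0.0715). Col14a1, Col6a4, Col26a1 and Col25a1 were lost without each bladder replicate in turn, and Col14a1 and Col25a1 also without urethra replicates 1 and 2, Col6a4, Col26a1 and Col25a1 without urethra replicate 6, and Col6a4 and Col26a1 without urethra replicate 2 (adjusted p 0.0515 to 0.123 over these). In all, 2 collagen genes were called without bladder replicate 2 or 6, 3 without bladder replicate 8 or urethra replicate 2, and 5 without urethra replicate 1 or 6. Col8a2 was lost without any bladder or urethra replicate and without sinus replicates 2 and 6 (adjusted p 0.0502 to 0.137). Other settings ended calls too. Col26a1 was lost with quantile normalization (adjusted p = 0.0596), median centring (0.106) and the mean of all probe sets (0.130), and Col25a1 with median centring (0.102). Col8a2 was lost with quantile normalization (0.0537), a floor at the 40th percentile (0.0579) and no filter (0.0654), and Col6a4 with that floor (0.0690). Col14a1 was lost with the mean of its probe sets (0.125) and without the probe set marked as shared (0.316).

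Among the markers, 0 of 8 smooth muscle genes were called between bladder and urethra (median difference 0.18). Of 12 epithelial markers the keratins Krt5 (-5.06), Krt15 (-4.43) and Krt14 (-2.28) were called lower in bladder and none higher, with a list median of -0.98, while Upk1b (1.25) and Upk3a (1.80) had higher means in bladder without passing. Called higher in bladder were 1 of 13 cartilage and bone markers (Hapln1, 2.06, list median -0.29), 1 of 8 endothelial markers (Kdr, 2.04, list median 0.08), 1 of 8 neuron and glia markers (Ncam1, 1.78, list median -0.70) and 1 of 5 mesothelial markers (Upk3b, 4.32, list median 1.32). The median over all genes was -0.25, and the part of these lists in the collagen values was not tested.

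In urethra against sinus, 6 of 39 collagen genes did not overlap (3 higher, 3 lower), beside 8.2% of all genes. Those higher in urethra were Col2a1, Col4a2 and Col4a6, and those lower were Col14a1, Col25a1 and Col8a2. The smallest adjusted p was that of Col25a1 (log2 difference -1.17, SE 0.29, adjusted p = 0.215), and without sinus replicate 1 it was called (22 genes in all). The interval of the log2 difference at Col23a1 was -0.62 to 1.28.

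Against the newborn reference, 1 collagen gene was called higher and 6 lower in the bladder, beside 5.82% and 11.2% of all genes. In the sinus 2 were higher and 3 lower, beside 4.62% and 9.18%, and in the urethra 3 higher and 6 lower, beside 4.36% and 8.86%. As shares of the 39 genes these counts were 2.56% and 15.4%, 5.13% and 7.69%, and 7.69% and 15.4%. The 3 comparisons share the reference sample and cannot be counted as separate evidence. With arrays centred on their medians the calls were 2 higher and 3 lower in bladder, 1 and 1 in sinus, and 2 and 2 in urethra. With quantile normalization they were 2 and 4, 4 and 2, and 4 and 4. Within the shared title styles, each with 1 reference array, Col25a1 exceeded the reference by 4.47 and 3.21 in bladder, 4.05 and 3.18 in sinus and 2.99 in urethra, and Col2a1 differed by -6.44 and -5.44, -4.51 and -4.74, and -3.42.

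Without bladder replicate 6 or sinus replicate 6, 2 collagen genes were called in sinus against the reference, and 10 without sinus replicate 1. In bladder against the reference 3 and 4 were called without bladder replicates 6 and 8, and in urethra 5 and 4 without urethra replicates 1 and 6. Some of these calls were lost without a single array. At times that array lay outside the groups compared, which leaves the log2 difference itself unchanged. The calls of Col25a1 and Col2a1 in all 3 regions, Col9a1 in bladder and Col4a6 in urethra held without any single array. In bladder, Col6a4 was lost without bladder replicate 6 or 8, Col11a1 without bladder replicate 2 or 6, Col17a1 without bladder replicate 6 or 8 or sinus replicate 6, and Col11a2 without bladder replicate 6 or 8, urethra replicate 6 or reference replicate 3 (adjusted p 0.0525 to 0.0913). In sinus, Col11a1 was lost without bladder replicate 6 or sinus replicates 2, 6 or 7, and Col23a1 without bladder replicate 6, sinus replicate 2 or 6, urethra replicate 2 or reference replicate 2. Col17a1 was lost there without any of 9 arrays, which were all bladder and urethra replicates, sinus replicates 6 and 7 and reference replicate 2 (adjusted p 0.0508 to 0.0938 for the 3 genes). In urethra, Col9a1 was lost without urethra replicate 6, Col23a1 without urethra replicate 1, and Col11a1 without either (adjusted p 0.0519 to 0.0585). Col1a1, Col11a2 and Col5a3 were lost in urethra without 8, 8 and 6 of the 13 arrays. These were, for all 3 genes, bladder replicates 2 and 6 and urethra replicate 6. Bladder replicate 8 and urethra replicate 2 mattered for Col1a1 and Col11a2, sinus replicate 6 and urethra replicate 1 for Col1a1 and Col5a3, and sinus replicate 7 for Col11a2 and Col5a3. Sinus replicate 2 and reference replicate 3 mattered for Col11a2 and reference replicate 1 for Col1a1 (adjusted p 0.0512 to 0.0948 over the 3).

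**Figure D4:**
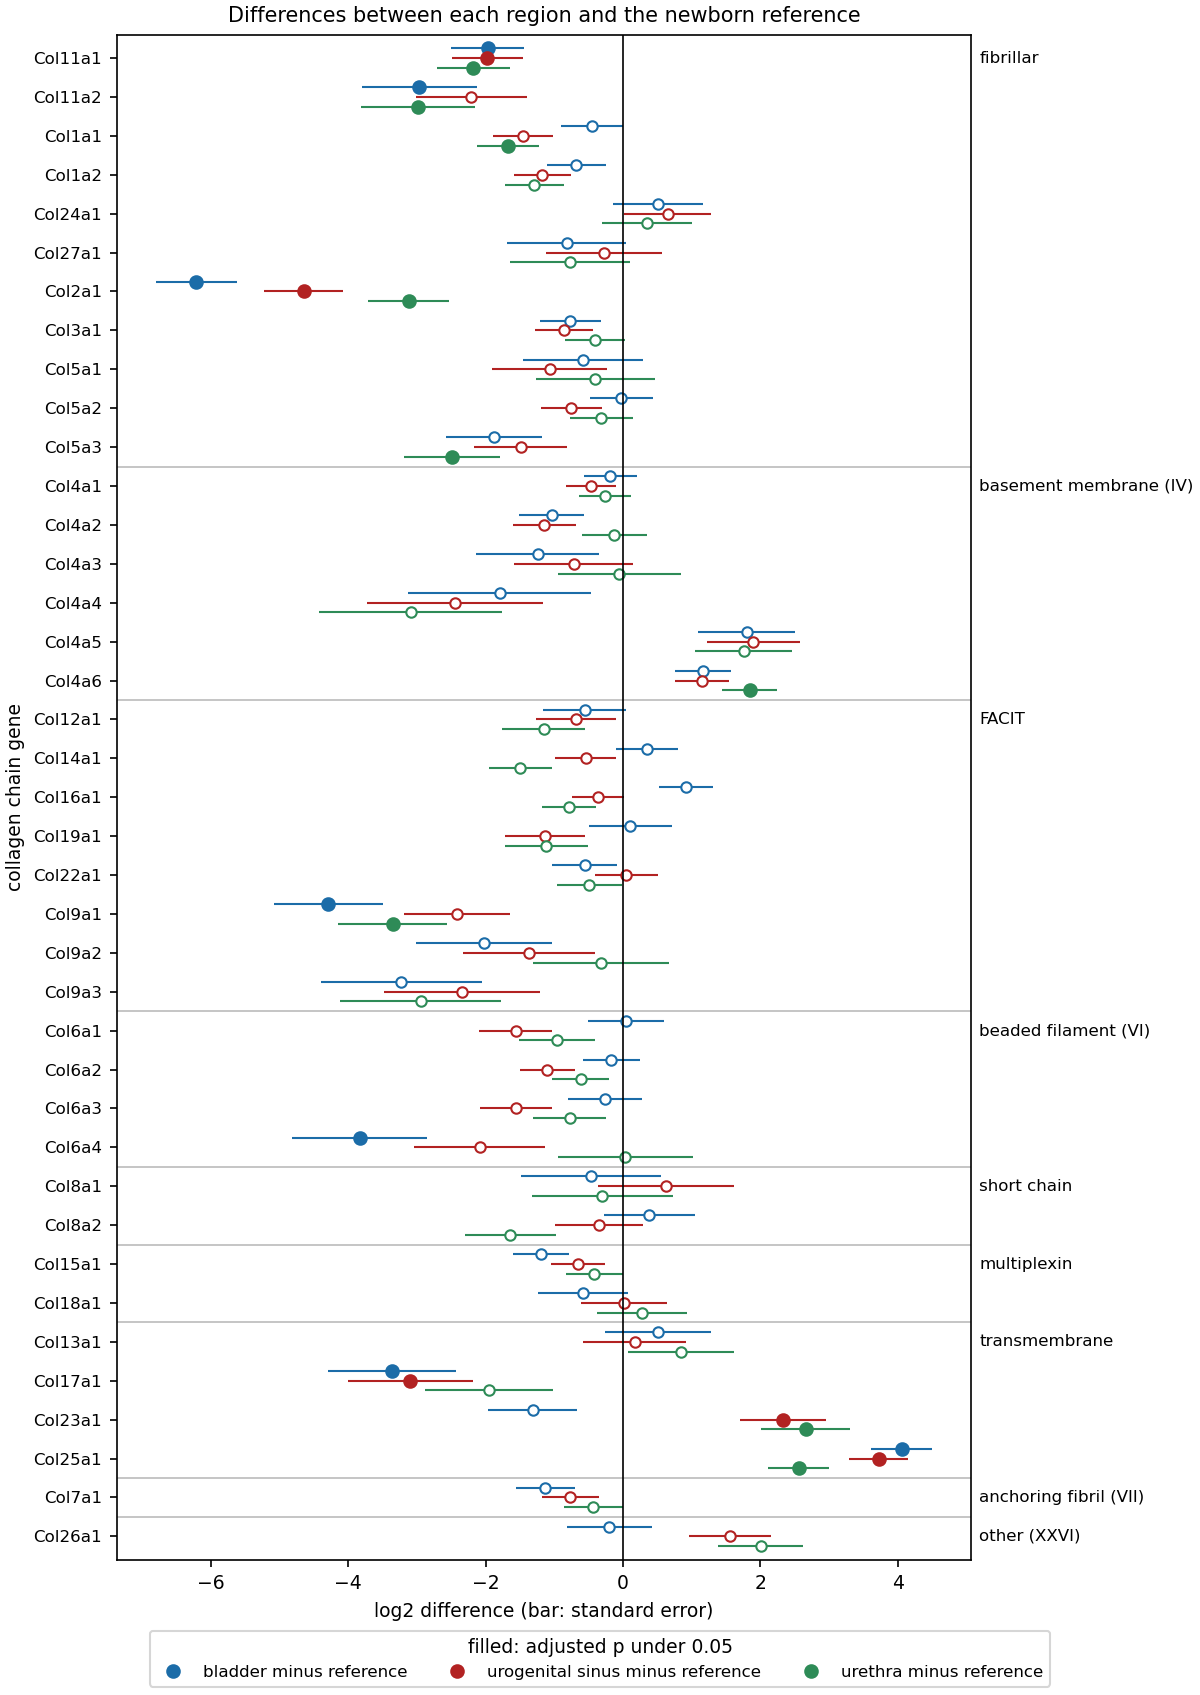
Log2 differences of bladder, urogenital sinus and urethra from the newborn reference (x axis, bars are standard errors) for the 39 tested collagen genes by class; filled points have an adjusted p under 0.05. Col25a1 lies far to the right in all 3 regions (4.05, 3.72 and 2.55), and Col2a1 far to the left (-6.22, -4.65 and -3.12).

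Genes that make, export and bind collagen were read from the same fits. Over all genes 0.813% were called higher and 1.71% lower in bladder than in sinus, and 1.71% and 2.61% in bladder than in urethra. Of 16 tested genes for folding and hydroxylation, 1 was called between regions: P4ha1, the catalytic chain of a prolyl hydroxylase, was 2.88-fold higher in bladder than in sinus (log2 difference 1.53, SE 0.34, adjusted p = 0.0474). Of 8 tested genes for secretion and propeptide removal, Sec24d and Sec23a, coat proteins of the vesicles that carry procollagen from the endoplasmic reticulum, were called higher in bladder. Sec24d exceeded the sinus 3.47-fold (1.79, SE 0.35, adjusted p = 0.0330) and the urethra 2.94-fold (1.56, SE 0.37, adjusted p = 0.0489), and Sec23a the urethra 2.97-fold (1.57, SE 0.37, adjusted p = 0.0469). Of 8 tested collagen receptors Itgb1, the shared beta chain of the collagen-binding integrins, was 3.01-fold higher in bladder than in urethra (1.59, SE 0.37, adjusted p = 0.0436). Differences from the urethra cannot be told apart from title style. With title style in the fit, 4 of all 15006 genes were called higher in bladder than in urethra, and 256 without it. The companion calls were not followed through the other settings. None of the 4 tested lysyl oxidase genes, which cross-link collagen, was called in any comparison. Against the reference Serpinh1, the collagen chaperone, was higher in bladder (3.65-fold, adjusted p = 0.0373) and urethra (4.08-fold, adjusted p = 0.0309). Pcolce2, an enhancer of procollagen cleavage, was under the filter level on every bladder and sinus array, at least 12.95-fold below the reference in both, and 11.8-fold lower in urethra (adjusted p up to 0.00627). It therefore entered the test only through urethra and reference arrays.

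Stage was compared within the region arrays, as Theiler stage 22 against 21 with region in the fit. No collagen gene was called at this threshold, beside 0% of all genes higher and 0% lower with limma, although 3830 genes and 6 collagen genes had an unadjusted p under 0.05. The collagen gene nearest the threshold was Col8a1, higher at stage 22 (log2 difference 1.48, SE 0.34, adjusted p = 0.0769), followed by Col9a3, lower (log2 difference -1.59, SE 0.45, adjusted p = 0.0902). In all 3 regions the stage 22 arrays of Col8a1 read above the stage 21 arrays: 11.58 and 11.99 against 10.78 in bladder, 12.79 and 13.90 against 11.45 and 11.99 in sinus, and 12.76 against 10.31 and 11.76 in urethra. With array weights Col8a1 was called, among 1421 genes.

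Probe sets of the same gene gave a check within the arrays. For 22 of the collagen genes, 28 further probe sets passed the filter. Their difference had the sign of the probe set used in 18 of 28 for bladder against sinus, 19 for urethra against sinus and 17 for bladder against urethra, and in 23, 21 and 22 of 28 for bladder, sinus and urethra against the reference. Col23a1 kept its direction between bladder and the other regions in all its probe sets, and Col25a1 was the called gene whose other probe set opposed it. The FACIT gene Col22a1 was not called, at -0.56, 0.05 and -0.49 against the reference in bladder, sinus and urethra. Its further probe sets gave -2.78, -4.02 and -4.59, and -1.74, -2.46 and -2.82. Col22a1 was called in each region with a floor at the 40th percentile, and in sinus and urethra with the mean of its probe sets. Its result against the reference thus depends on the probe set. Where each probe set lies in its transcript was not analysed here.

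**Figure D5:**
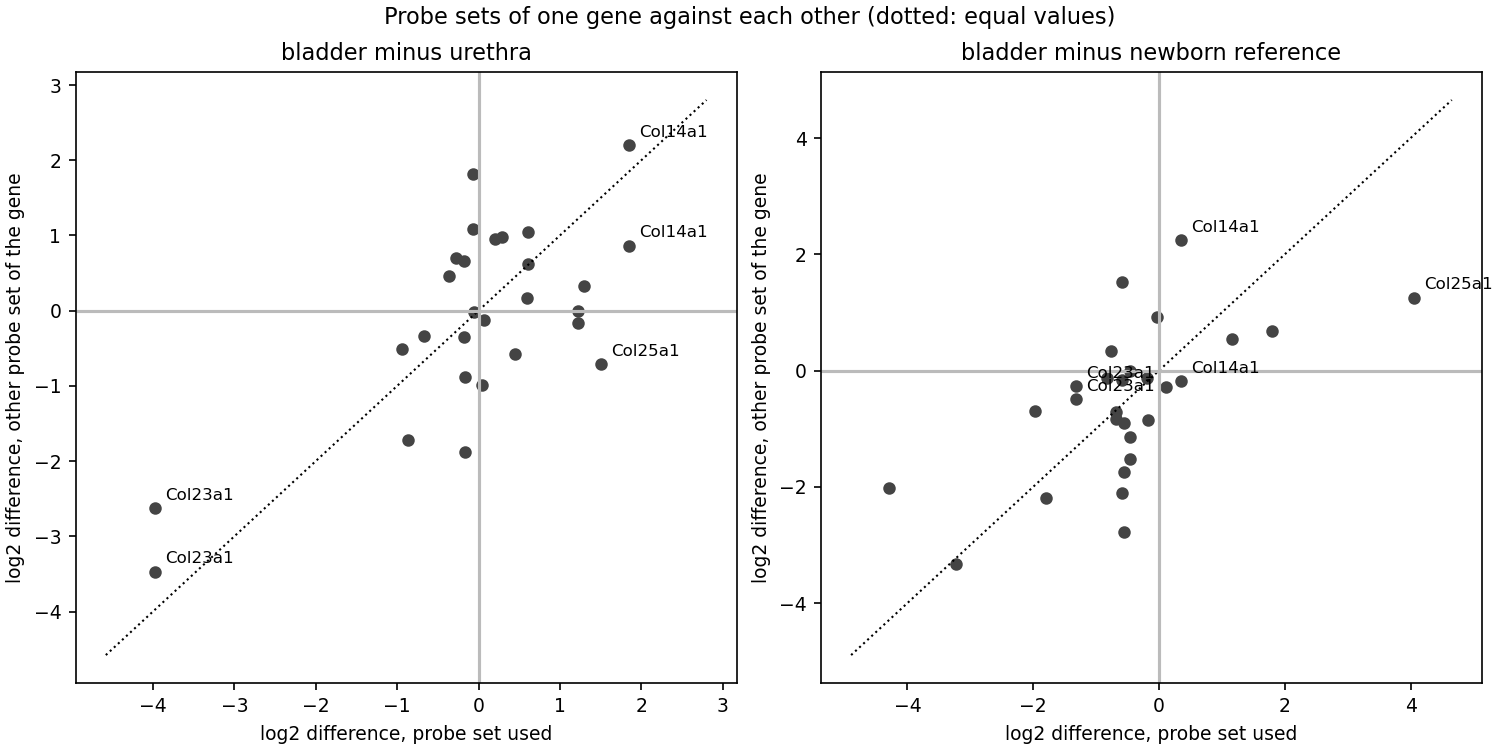
Each point is a further probe set of a collagen gene that passed the filter, with the log2 difference of the probe set used on the x axis and its own on the y axis, for bladder minus urethra and bladder minus reference; the dotted line marks equal values. The 2 further Col23a1 probe sets lie near the line on the left (-3.47 and -2.63 against -3.98), and Col25a1 lies below 0 (-0.71 against 1.50).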

How the data were processed

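RNA of 10 region samples and 3 reference arrays was amplified, biotin labelled and hybridized to Affymetrix MOE430 arrays, per the labels' protocols. The deposited values are linear signal intensities, 1 per probe set, made by the authors with GCOS, per the submitters' processing notes; its version is not given in the sources used here. From the deposited intensities, values under 50.23 were set to 50.23, log2 was taken, and the probe set with the highest mean represented each gene. Genes above 167.76 on at least 3 arrays were tested with limma 3.58.1 (lmFit and eBayes) in R 4.3.3. Comparisons between regions came from 1 fit over the 10 region arrays. Comparisons with the reference came from another fit that added the mean of the reference arrays. That mean counted as 1 sample and was assumed to vary like the region samples. Stage was tested over the region arrays with region in the fit. P-values were adjusted by Benjamini-Hochberg over all 15006 genes. The fit over the region arrays had 7 residual and 2.83 prior degrees of freedom, and the number of arrays limits the precision. An "at least" fold sets the lower group, under 167.76 on every array, at that level.

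The genes, classes and lists were chosen with earlier results of these data known. Every array's value is given for genes called between regions, for the 2 genes of each class of at least 2 with the smallest p between regions, and for the 3 genes farthest above and the 3 farthest below the reference, averaged over regions; Col7a1 is added. Companion genes are named where called. On simulated data for bladder against sinus over 15006 genes, 45.3% of changes of 2 log2 units and 81.0% of changes of 3 were recovered. Alternatives covered scaling, floor, filter, probe set choice, array weights, title style, title number, stage, the reference as 3 samples and each array left out.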

Additional observations from a re-analysis of the deposited data

Results flagged for a closer look

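Of 39 collagen genes looked at in the 4 sinus arrays, 2 had a sample far from the others, and chance marks about 5% of groups. Col16a1 read 10.13 on sinus replicate 7, below the other 3 sinus arrays at 10.90 to 11.01. Col5a1, a type V fibrillar chain, read 15.54 on sinus replicate 1, above the other 3 at 13.23 to 13.47.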

How the results depend on the processing

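Over 31 calls of a gene in a comparison and 692 alternative values, 544 kept the call, 148 lost it and 0 reversed; 7 calls held in every setting. The 2 collagen genes called in bladder against sinus became 4 with a floor of 16, 14 with array weights and 4 with title style as a block. The 8 in bladder against urethra became 5 with the mean of all probe sets and 0 with title style. Array weights gave 5 in urethra against sinus, 1 for stage, and 17, 22 and 16 in bladder, sinus and urethra against the reference. The reference as 3 samples gave 18, 21 and 18. Title style gave 12 in bladder and 15 in sinus against the reference. Centring on medians gave 2 in sinus and 4 in urethra, and a floor at the 40th percentile gave 9 in sinus. Leaving out each array gave 1 to 5 in bladder against sinus, 0 to 1 in urethra against sinus, 2 to 9 in bladder against urethra, 3 to 10, 2 to 10 and 4 to 11 in bladder, sinus and urethra against the reference, and 0 for stage. The causes were not tested.

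Over all genes, 122 higher and 257 lower in bladder than in sinus became 138 and 35 after median centring and 97 and 98 after quantile normalization. Bladder against urethra went from 256 and 392 to 176 and 58, and to 219 and 169. Array weights called 2667, 660 and 1870 genes in bladder against sinus, urethra against sinus and bladder against urethra. With the title number as a replicate block, 1 collagen gene was called in bladder against sinus, 3 in bladder against urethra and 0 in urethra against sinus. That block ended the call of Col16a1 in bladder against sinus (adjusted p = 0.114) and of Col14a1 (0.0520), Col6a4 (0.125), Col26a1 (0.0818), Col25a1 (0.138) and Col8a2 (0.134) in bladder against urethra. Deviations from group means correlated over 0.1 in 5 of 7 same-numbered pairs (0.15 to 0.36), and the other 2 gave 0.095 and -0.17. Same-numbered samples of different regions also shared a Theiler stage, and nothing says what else the numbers mark. These correlations cannot decide whether such samples are paired. The main fit had no block for the number, and the calls with that block are those given above. Values near the floor of 50.23 have no order.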
